A study of Homo sapiens with 12 samples.

Results

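The genes described here are 10 cytosolic enzymes that reduce or oxidise carbonyl compounds and are known or proposed targets of the transcription factor NRF2: the aldo-keto reductases AKR1C1, AKR1C2, AKR1C3, AKR1B1 and AKR1B10, the quinone reductase NQO1, the aldehyde dehydrogenases ALDH3A1 and ALDH1A1, and the carbonyl reductases CBR1 and CBR3. They were chosen by name, and the values of all annotated transcripts carrying each gene symbol were summed, giving 10 of the 19647 genes measured. All 10 passed the filter on low values, an FPKM (fragment count scaled to transcript length and library size) of 1 or more in at least 3 of 12 libraries, as did 11908 genes in all.

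The study used A549 cells, a human non-small cell lung cancer line, and sequenced RNA from 12 libraries in 4 groups of 3. NR0B1 overexpression cells were set against a wild-type overexpression control, and NR0B1 knockdown cells, made with a short hairpin RNA (shNR0B1), against a wild-type knockdown control carrying the hairpin control shNC. No group received a further treatment. The sources used here do not give the hairpin sequence, the vector, or whether lines were clones or pools. They do not say that libraries came from separate cultures, so p-values measure the spread between these samples, which may be technical.

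NRF2, encoded by NFE2L2, is held low in unstressed cells by KEAP1, an adaptor that marks it for degradation. When released, it pairs with small MAF proteins on antioxidant response elements and switches on enzymes that detoxify aldehydes, ketones and quinones with NADPH. A549 cells carry a KEAP1 mutation and are known for constitutive NRF2 activity and for very high amounts of these enzymes. NR0B1, also called DAX1, is an atypical nuclear receptor without a DNA-binding domain of the usual kind and is best known as a corepressor.

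The genes sit in clusters. In GRCh38, AKR1C1 (ENSG00000187134) lies at chr10:4963253-4983283 on the plus strand, AKR1C2 (ENSG00000151632) at chr10:4987400-5018031 on the minus strand and AKR1C3 (ENSG00000196139) at chr10:5035354-5107686 on the plus strand, with 4116 and 17322 bases between them. AKR1B1 (ENSG00000085662, chr7:134442350-134459284, minus strand) and AKR1B10 (ENSG00000198074, chr7:134527592-134541408, plus strand) are 68307 bases apart. CBR1 (ENSG00000159228, chr21:36069941-36073166, plus strand) and CBR3 (ENSG00000159231, chr21:36134912-36146566, plus strand) are 61745 bases apart. NQO1 (ENSG00000181019) lies at chr16:69706996-69726951, ALDH3A1 (ENSG00000108602) at chr17:19737984-19748943 and ALDH1A1 (ENSG00000165092) at chr9:72900662-73080442, each on the minus strand. All values are over whole genes, exons of coding and untranslated parts together.

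The 3 AKR1C enzymes are near copies, which sets how far their values can be told apart. The coding sequences of AKR1C1 and AKR1C2, 972 bases each, were 98% identical and differed at 19 positions, whereas AKR1C3 was 91.9% identical to AKR1C1 and 91.3% to AKR1C2. The longest coding run shared by AKR1C1 and AKR1C2 without a difference was 189 bases. Of the 19 differences, 10 lay in the 60 coding bases from position 103 to 162, shown because reads from it can be assigned to 1 of the 3 genes (GENCODE 29 transcripts, positions counted from the A of the start codon, capitals mark the 15 positions at which the 3 genes are not all the same).
AKR1C1: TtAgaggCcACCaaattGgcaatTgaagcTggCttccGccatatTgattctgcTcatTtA
AKR1C2: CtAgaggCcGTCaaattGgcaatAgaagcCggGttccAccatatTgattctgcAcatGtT
AKR1C3: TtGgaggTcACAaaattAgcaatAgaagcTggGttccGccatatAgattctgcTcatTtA

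Stretches of 1 annotated transcript per gene, for AKR1C3 one of 972 bases that is coding throughout, were sought in the transcripts of the other gene. Of the 100-base stretches, 17.2% of those of AKR1C1 occurred unchanged in AKR1C2 and 31.1% of those of AKR1C2 in AKR1C1. For AKR1C3, 8.25% occurred in AKR1C2. With 50-base stretches these shares were 28.3%, 50.8% and 18.3%. Reads from such stretches were divided by the authors' estimation. AKR1C1 and AKR1C2 values are therefore uncertain singly, and the sum of the 3 genes is given beside them. For the other related pairs the limit does not arise in this form: AKR1B1 and AKR1B10 were 76.2% and CBR1 and CBR3 77.3% identical, and neither pair shared a single 100-base stretch, nor one of 50 bases. AKR1B10 shared 1.14% of its 100-base and 11.6% of its 50-base stretches with AKR1B15, a neighbour of low level, and the read length is not given in the sources.

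The upstream sequences of the AKR1C genes carry the same likeness. RefSeq promoter windows (GRCh38.p14) were found for 7 of the 10 genes, and the 250 bases upstream were 96.5% identical between AKR1C1 and AKR1C2, against 71.4% between AKR1C1 and AKR1C3 and 69.6% between AKR1C2 and AKR1C3. The following 30-base pieces, at chr10:4963326-4963355 (plus strand), chr10:5003921-5003950 (minus strand) and chr10:5048696-5048725 (plus strand), are shown because each holds a CCAAT box, read here on the opposite strand and in capitals, which begins 77, 81 and 73 bases before the start site.
AKR1C1: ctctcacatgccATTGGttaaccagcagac
AKR1C2: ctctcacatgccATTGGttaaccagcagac
AKR1C3: cttttacatgctATTGGttaaccattaggc

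On both strands, CCAAT was found in 6 of the 9 windows of these genes and in 32% of all 35116 windows. The antioxidant response element core TGACNNNGC, the motif that NRF2 is known to bind, was found in 1 of the 9 windows and in 10.9% of all windows. That window was of CBR1, at chr21:36069855-36069884 on the plus strand, with the match, read on the opposite strand and in capitals, beginning 159 bases before the start site.
CBR1: tgcgggttctGCAAAGTCAggctagctggc

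The AP-1 motif TGACTCA was in none of the 9 windows and in 4.2% of all. These are letter matches only, and a window without one says nothing about binding elsewhere.

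Libraries held between 15049011 and 22797076 expected counts. NR0B1 stood at 98.9, 81.8 and 84.1 CPM (counts relative to library size, with TMM scaling between libraries) in overexpression libraries, against 17.9, 60.1 and 55.2 CPM in their controls (log2 fold change 0.99 ± 0.38 SE, edgeR adjusted p = 0.0912), and at 2.99, 3.31 and 5.84 CPM in knockdown libraries, against 16.3, 21.1 and 13.3 CPM in their controls (log2 fold change -2.06 ± 0.42, adjusted p = 0.00593). So every overexpression library was above its controls, but the gene did not pass the test in that arm. Overexpression control replicate 1 and knockdown replicate 2 stood apart from the other libraries of their groups, with correlations over genes of 0.949 and 0.953 for the control and 0.937 and 0.917 for the knockdown library. The summed FPKM of 7 epithelial and lung cancer line markers lay between 2936 and 5328 in all libraries, that of 3 endothelial markers was at most 0.28 and that of 4 fibroblast markers at most 0.77, and among leukocyte markers the T cell gene CD3E was at 0. The summed markers of the line were thus high, and those of endothelial cells and fibroblasts very low. Of the 7 line markers, CDH1 fell with overexpression (edgeR), and KRT19, EPCAM and CDH1 rose in the knockdown. Some also differed between the 2 control groups: on the overexpression side CDH1 was called higher, and KRT7 and KRT19 lower. Of the alveolar type II list, SFTPA1 was at 0 in all 12 libraries, and its summed FPKM lay between 35.1 and 43.3 with overexpression, against 16.97 and 20.0 in its control, and between 18.45 and 70.7 in the knockdown, against 9.35 and 12.6 in its control. The leukocyte list, in which CD68 was the 1 gene tested, lay between 42.3 and 57.9 with overexpression, against 44.6 and 56.9 in its control, and between 18.4 and 59.6 in the knockdown, against 15.1 and 22.8 in its control. The part of these differences in the results was not tested.

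The group was among the most abundant in the cell line. On the FPKM scale, which allows genes to be compared, ALDH1A1, which oxidises retinal and other aldehydes, averaged 2455 over the 12 libraries and ranked 7 of 19647 genes. AKR1B10 (1241, rank 27), ALDH3A1 (1179, rank 30), AKR1C2 (958, rank 38), NQO1 (859, rank 42) and AKR1B1 (675, rank 58) followed, then AKR1C3 (468, rank 101) and AKR1C1 (178, rank 275). The carbonyl reductases were far lower: CBR1 averaged 39.9 FPKM (rank 1651) and CBR3 3.10 FPKM (rank 9731). These levels and ranks are sums over annotated transcripts, in which a short transcript has more FPKM per count. They thus depend on how reads were split among transcripts. In AKR1C1, ENST00000442997 held 31.1% of the counts at 54.8 to 330.5 FPKM, and ENST00000380872 held 67.9% at 14.2 to 83.4 FPKM. The levels and ranks also leave out assembled transcripts. The assembled transcript with the symbol of AKR1C3 lay between 217 and 590 FPKM, and that of NQO1 between 58.4 and 204 FPKM. The place of AKR1C3 in this order therefore depends on leaving it out. Together the 10 genes took between 1.57% and 1.86% of the gene counts in overexpression libraries, against 1.97% to 2.34% in their controls, and 1.20% to 1.41% in knockdown libraries, against 1.38% to 1.47% in their controls. In bulk RNA, fewer cells with a transcript and less of it per cell cannot be told apart.

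**Figure D1:**
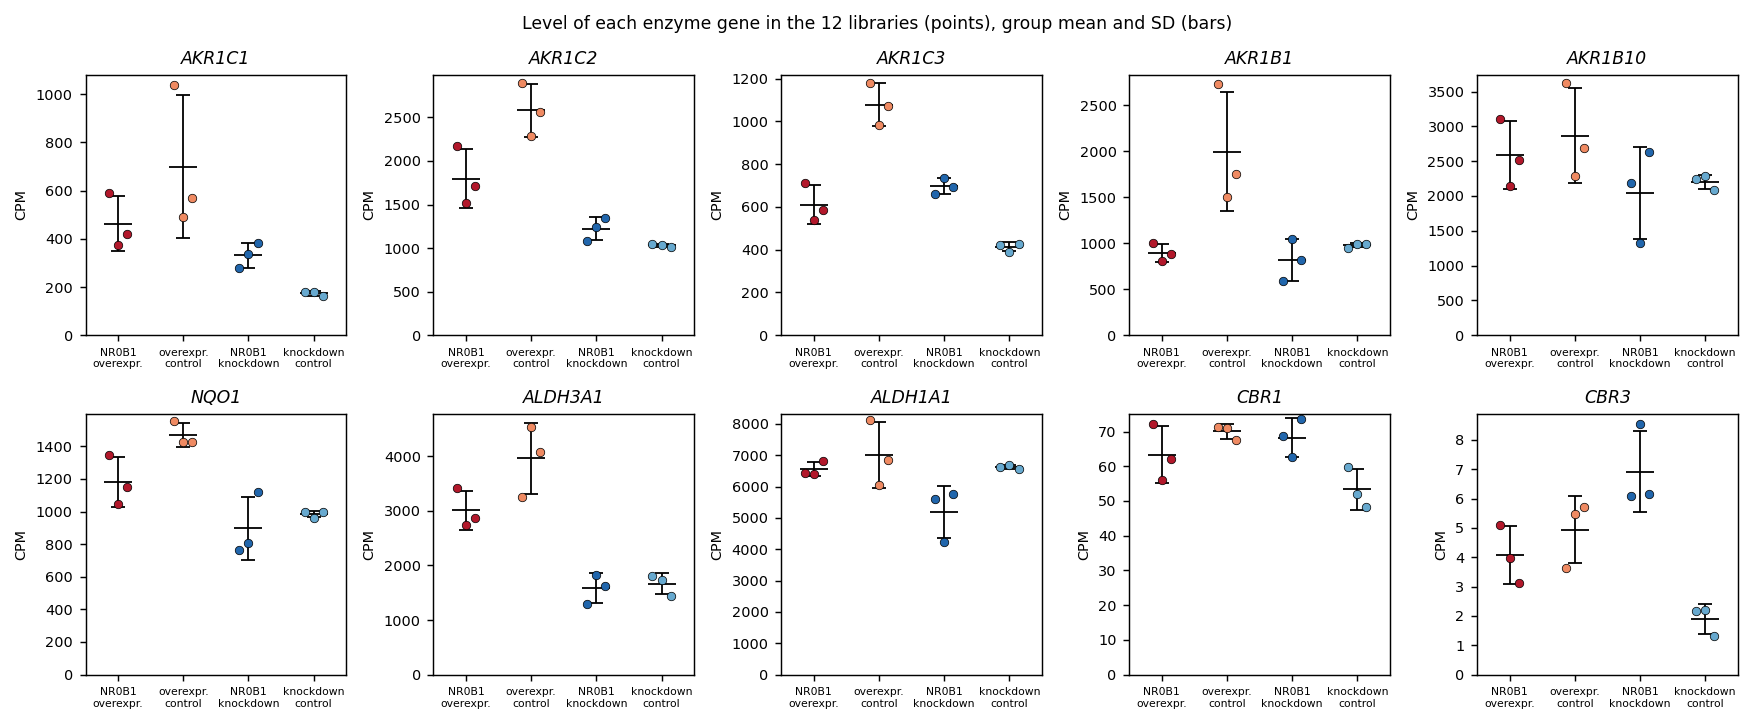
Level of each of the 10 genes in CPM (vertical axis, from 0) in the 12 libraries, by group (horizontal axis); points are libraries, and bars give the group mean and SD of 3. The overexpression control has the highest mean for 9 genes and the knockdown group for CBR3, and AKR1C1 and AKR1B1 spread widely in the overexpression control because 1 library is high.

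With NR0B1 overexpression, 3 of the 10 genes fell and none rose: AKR1C2, AKR1C3 and AKR1B1. The background was 8.2% of the 11908 genes tested for lower calls and 9.87% for higher calls (adjusted p below 0.05 in edgeR's quasi-likelihood test, Benjamini-Hochberg adjustment over all genes), and 18.1% were called in either direction. The fitted log2 fold change was below 0 for all 10 genes, with a median of -0.36 against -0.03 over all genes tested, although AKR1B10 and ALDH1A1 turned positive without overexpression control replicate 1 (0.06 and 0.02). In 4 genes, the 3 called and NQO1, every overexpression library lay below every control, against a background of 21.9% of genes with that order, 21.6% with the opposite order and 43.5% with either. For a single gene an exact permutation test of 3 against 3 libraries cannot give a two-sided p below 0.1.

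In the NR0B1 knockdown, 3 of the 10 genes rose and none fell: AKR1C1, AKR1C3 and CBR3. The background was 12.4% of the genes tested for higher calls and 11.5% for lower calls, and 23.9% were called in either direction. The median log2 fold change was 0.09 over the 10 genes and 0.03 over all genes. The libraries of the 2 groups did not overlap, with the knockdown above, for 5 genes (AKR1C1, AKR1C2, AKR1C3, CBR1 and CBR3), against 20.2% of all genes, and for ALDH1A1 with the knockdown below, against 20.6%, while 40.9% of genes had 1 of the 2 orders. DESeq2 called 5 genes (4 higher and 1 lower), and edgeR called 6 (4 higher and 2 lower) without overexpression control replicate 1 and knockdown replicate 2, CBR1 and ALDH1A1 being added by both and AKR1B1, lower, by the second. Those settings also called more of all genes, 30% with DESeq2 and 37.7% without the 2 libraries.

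**Figure D2:**
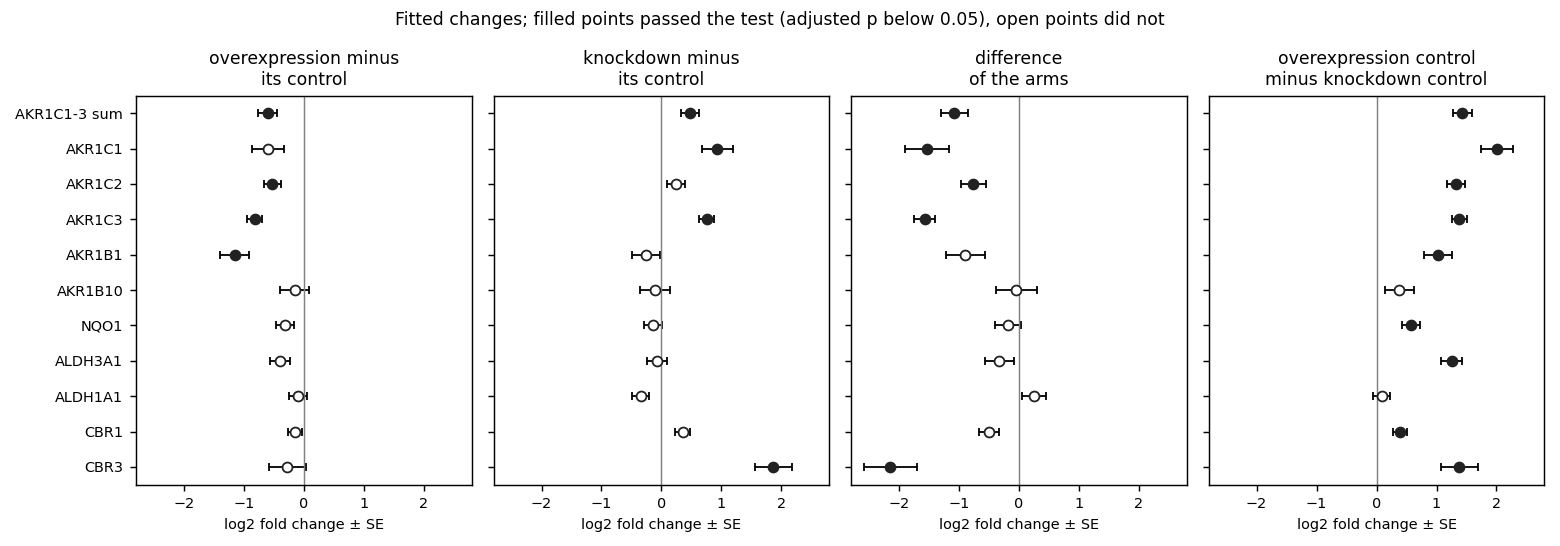
Fitted log2 fold change with its SE (horizontal axis) for the AKR1C sum and the 10 genes (rows) in 4 comparisons; filled points passed edgeR's test at an adjusted p below 0.05 and open points did not. AKR1C3 is below 0 with overexpression (-0.82) and above 0 in the knockdown (0.75), CBR3 is furthest above 0 in the knockdown (1.87), and 8 genes are filled in the comparison of the 2 controls.

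AKR1C3 gave the clearest difference in both arms. It encodes a ketosteroid reductase (17beta-hydroxysteroid dehydrogenase type 5) that also makes prostaglandin F2alpha. It was at 711, 539 and 585 CPM with overexpression, against 1179.9, 982 and 1074 CPM in the overexpression control. Its 3 overexpression libraries were all below its 3 controls, and it was 1.76-fold lower (log2 fold change -0.82 ± 0.12 SE, edgeR adjusted p = 0.0025). In the knockdown it was at 663, 736 and 693 CPM, against 423, 390.1 and 428 CPM in the knockdown control. All knockdown libraries were above all of their controls here, 1.69-fold higher (log2 fold change 0.75 ± 0.12, adjusted p = 0.00187). Both calls held without any 1 of the 12 libraries, with adjusted p of at most 0.0165 for overexpression and 0.0107 for the knockdown.

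AKR1C1, which inactivates progesterone by 20-alpha reduction, was at 591, 375 and 421 CPM with overexpression, against 1038, 492 and 568 CPM in the overexpression control. These groups overlapped, and the difference did not pass (log2 fold change -0.60 ± 0.26, edgeR adjusted p = 0.13). Control replicate 1 was high, and without it the log2 fold change was -0.20. In the knockdown AKR1C1 was at 278, 337 and 382 CPM, against 181, 177 and 164 CPM in the knockdown control. The lowest knockdown library stood well above the highest control, and the gene was 1.91-fold higher (log2 fold change 0.93 ± 0.26, adjusted p = 0.0256). This call ended without knockdown replicate 3 or any 1 of the 3 knockdown controls, with adjusted p up to 0.0858.

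AKR1C2, which reduces dihydrotestosterone at its 3-keto group, was at 2168, 1514 and 1708 CPM with overexpression, against 2898, 2287 and 2561 CPM in the overexpression control. Again no overexpression library reached a control, and the gene was 1.44-fold lower (log2 fold change -0.52 ± 0.15, edgeR adjusted p = 0.033). The call ended without any 1 of 7 libraries (overexpression replicates 2 and 3, overexpression control replicates 1 and 3, and each knockdown control), with adjusted p up to 0.123, and at 0.0525 when only these 2 groups were fitted. In the knockdown AKR1C2 was at 1080.5, 1247 and 1343 CPM, against 1050.4, 1036 and 1016 CPM in the knockdown control. The groups did not overlap, but the log2 fold change of 0.24 ± 0.15 did not pass (adjusted p = 0.251).

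The sum over the 3 paralogs, which does not depend on how reads were divided among their annotated transcripts but leaves out reads given to assembled transcripts, was at 3469.6, 2427 and 2714 CPM with overexpression, against 5116, 3762 and 4205 CPM in the overexpression control. It was 1.52-fold lower (log2 fold change -0.60 ± 0.16, edgeR adjusted p = 0.0235), and the call ended without overexpression replicate 2 or 3 or overexpression control replicate 3 (adjusted p up to 0.0925). In the knockdown the sum was at 2021, 2320.0 and 2418 CPM, against 1654, 1603 and 1608 CPM in the knockdown control, 1.39-fold higher (log2 fold change 0.47 ± 0.15, adjusted p = 0.0462). Every knockdown library was above every control, but this call lay at the threshold: 7 of the 12 omissions of 1 library ended it (overexpression replicate 3, overexpression control replicate 3, knockdown replicates 2 and 3, and each knockdown control), with adjusted p up to 0.12, as did 5 of the other 11 settings, with adjusted p up to 0.0752. With the assembled AKR1C rows added, the log2 fold change of the sum was -0.60 with overexpression (adjusted p = 0.0175) and 0.56 in the knockdown (adjusted p = 0.0174).

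The make-up of that sum also differed in the knockdown. AKR1C3 took 32.8%, 31.7% and 28.7% of the summed counts in knockdown libraries, against 25.6%, 24.3% and 26.6% in the knockdown control. AKR1C1 took between 13.7% and 15.8% in the knockdown, against 10.2% to 11.1% in its control, and AKR1C2 between 53.5% and 55.6%, against 63.2% to 64.6%. So in all 3 knockdown libraries AKR1C2 had a smaller part than in any control. With overexpression AKR1C3 took between 20.5% and 22.2%, against 23.1% to 26.1% in the overexpression control. With the assembled rows of the 3 genes added, an alternative chosen after seeing the data, AKR1C3 took between 33.8% and 35.6% with overexpression, against 34.6% to 39.0% in the overexpression control, so these groups then overlapped. On that count it took between 43.8% and 48.1% in the knockdown, against 37.6% to 40.05% in the knockdown control, and AKR1C2 between 41.6% and 44.0%, against 51.7% to 53.3%, still without overlap. All these shares are of counts without correction for length and rest on the authors' division of shared reads.

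**Figure D3:**
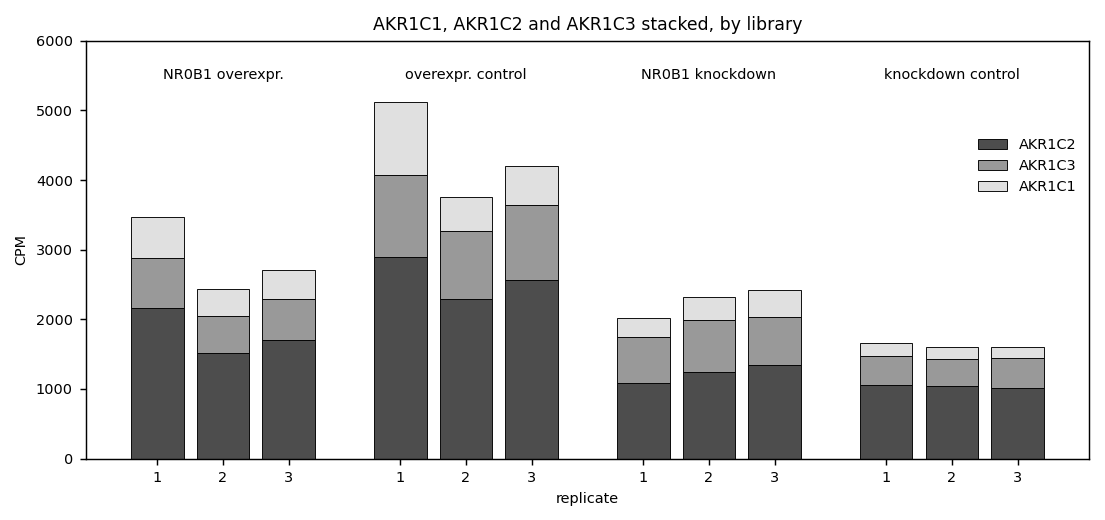
Summed level of AKR1C2 (bottom), AKR1C3 (middle) and AKR1C1 (top) in CPM (vertical axis, from 0) for each replicate of the 4 groups (horizontal axis). Stacks run from 2427 to 3469.6 CPM with overexpression, 3762 to 5116 CPM in its control, 2021 to 2418 CPM in the knockdown and 1603 to 1654 CPM in its control.

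The 2 aldose reductase relatives behaved unlike each other. AKR1B1 is the aldose reductase of the polyol pathway, which turns glucose into sorbitol. It was at 999.7, 808 and 879 CPM with overexpression, against 2728, 1503 and 1753 CPM in the overexpression control. No overexpression library came near the lowest control, and AKR1B1 was 2.23-fold lower, the largest fitted fold change of the 10 genes in this arm (log2 fold change -1.16 ± 0.24, edgeR adjusted p = 0.00937). Overexpression control replicate 1 was the highest of the controls, and without it the log2 fold change was -0.86 (adjusted p = 0.013); over the 12 omissions of 1 library the adjusted p was at most 0.0425. In the knockdown AKR1B1 was at 592, 1047 and 815 CPM, against 952, 990.2 and 993 CPM in the knockdown control. Knockdown replicate 2 was above the controls and the others were below, and the difference did not pass (log2 fold change -0.26 ± 0.23, adjusted p = 0.445).

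AKR1B10, which reduces retinal and aldehydes from lipid peroxidation and is a known marker of NRF2 activation in lung cancer, was at 3101, 2138 and 2518 CPM with overexpression, against 3629, 2287 and 2689 CPM in the overexpression control. The groups overlapped and nothing passed (log2 fold change -0.15 ± 0.24, edgeR adjusted p = 0.7). It was at 2188, 1324 and 2626 CPM in the knockdown, against 2241, 2281 and 2085 CPM in the knockdown control (log2 fold change -0.11 ± 0.24, adjusted p = 0.784). Knockdown replicate 2 was the lowest of the 12 libraries, and without it the log2 fold change was 0.13.

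NQO1, which reduces quinones to hydroquinones in a single step, was at 1345, 1044 and 1153 CPM with overexpression, against 1557, 1428 and 1428 CPM in the overexpression control. The 3 overexpression libraries were below the 3 controls, but the log2 fold change of -0.32 ± 0.15 did not pass (edgeR adjusted p = 0.154). In the knockdown NQO1 was at 767, 806 and 1118 CPM, against 998, 962 and 995 CPM in the knockdown control, with knockdown replicate 3 above the controls and the others below (log2 fold change -0.13 ± 0.15, adjusted p = 0.54). Of the NQO1 transcripts, ENST00000564043 held the largest share, between 36.8% and 37.7% of the gene's counts with overexpression, 38.8% to 39.0% in the overexpression control, 36.9% to 40.8% in the knockdown and 37.7% to 39.3% in the knockdown control. Other NQO1 transcripts varied more: ENST00000439109 took between 14.7% and 20.3% with overexpression, 17.6% to 18.8% in its control, 15.8% to 20.7% in the knockdown and 21.1% to 22.8% in its control.

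Neither aldehyde dehydrogenase passed in either arm. ALDH3A1, which oxidises aromatic and medium-chain aldehydes, was at 3417, 2744 and 2865 CPM with overexpression, against 3258, 4545 and 4086 CPM in the overexpression control. These overlapped through control replicate 1 alone, the lowest of its group, and the log2 fold change was -0.40 ± 0.17 (edgeR adjusted p = 0.122, and 0.0486 without that replicate). In the knockdown ALDH3A1 was at 1291, 1831 and 1627 CPM, against 1804, 1740.4 and 1444 CPM in the knockdown control, 2 groups that overlapped throughout (log2 fold change -0.07 ± 0.17, adjusted p = 0.792). ALDH1A1 was at 6445, 6394 and 6808 CPM with overexpression, against 8128, 6054 and 6846 CPM in the overexpression control, and changed sign without control replicate 1 (log2 fold change -0.10 ± 0.14, adjusted p = 0.664). In the knockdown it was at 5591, 4246 and 5764 CPM, against 6622, 6676 and 6548 CPM in the knockdown control. All knockdown libraries were below all of their controls, and the log2 fold change of -0.35 ± 0.14 did not pass (adjusted p = 0.101).

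A minor transcript of ALDH3A1, ENST00000494157, took 7.58%, 8.39% and 8.39% of the gene's counts with overexpression, against 2.94%, 7.07% and 6.80% in the overexpression control. In knockdown libraries it took between 3.45% and 4.47%, against 2.59% to 4.37% in the knockdown control. The overexpression libraries were thus the highest of the 12 for this share, though close to 2 of their controls, and no test was run on it.

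CBR3 and CBR1 reduce carbonyl groups of xenobiotics such as anthracyclines, CBR1 being the more active of the pair. CBR3 was at 5.11, 3.99 and 3.13 CPM with overexpression, against 3.62, 5.46 and 5.73 CPM in the overexpression control (log2 fold change -0.28 ± 0.30, edgeR adjusted p = 0.555). In the knockdown it was at 6.08, 8.53 and 6.15 CPM, against 2.17, 2.19 and 1.31 CPM in the knockdown control. The lowest knockdown library was far above the highest control, and CBR3 was 3.65-fold higher, the largest fold of the 10 genes in that arm (log2 fold change 1.87 ± 0.31, adjusted p = 0.0023). The call held without any 1 library (adjusted p at most 0.0134), and a count of 3 corresponds to 0.153 to 0.234 CPM, so these levels rest on few reads but lie above that floor.

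CBR1 was at 72.1, 55.9 and 62.0 CPM with overexpression, against 71.4, 71.2 and 67.6 CPM in the overexpression control, overlapping groups (log2 fold change -0.15 ± 0.12, edgeR adjusted p = 0.425). It was at 68.6, 62.6 and 73.6 CPM in the knockdown, against 59.9, 52.0 and 48.3 CPM in the knockdown control. The knockdown libraries were all higher, and the log2 fold change of 0.36 ± 0.12 missed the threshold (adjusted p = 0.0548), passing in 4 of 11 other settings. A minor CBR1 transcript, ENST00000530908, took 5.85%, 7.17% and 5.09% of the gene's counts with overexpression, against 4.16%, 1.41% and 0.963% in the overexpression control, and between 1.78% and 4.92% in the knockdown, against 1.06% to 1.57% in the knockdown control. SETD4 overlaps CBR1 on the opposite strand and averaged 4.48 FPKM, and CBR3-AS1 overlaps CBR3. Whether counting used strand is not given in the sources used here, so reads of such pairs cannot be told apart.

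Whether the 2 arms differed was tested as the overexpression change minus the knockdown change. Of the 10 genes, 4 passed, all in the negative direction, against a background of 12.6% of genes for that direction, 13.1% for the positive one and 25.6% for both: AKR1C1 (log2 difference -1.53 ± 0.37 SE, edgeR adjusted p = 0.0122), AKR1C2 (-0.77 ± 0.21, adjusted p = 0.0209), AKR1C3 (-1.57 ± 0.17, adjusted p = 0.000269) and CBR3 (-2.14 ± 0.44, adjusted p = 0.00537). The AKR1C sum passed too (-1.08 ± 0.22, adjusted p = 0.00536). The AKR1C genes share reads, so their calls are not separate results. Each difference also takes in both control groups, which stood at unlike levels. Mean CPM with overexpression and in the knockdown were 462 and 332 for AKR1C1, 1797 and 1224 for AKR1C2, 611 and 697 for AKR1C3. In the overexpression and knockdown controls they were 699.5 and 174, 2582 and 1034, 1079 and 414. For CBR3 they were 4.08 and 6.92, and 4.94 and 1.89 in the controls. The median over the 10 genes was -0.63, against -0.06 over all genes. AKR1C2 lost its call without overexpression replicate 2 or 3 or knockdown control replicate 3 (adjusted p up to 0.059). CBR1 (-0.50 ± 0.17, adjusted p = 0.0532) and AKR1B1 (-0.90 ± 0.33, adjusted p = 0.066) did not pass, and for NQO1, ALDH3A1, ALDH1A1 and AKR1B10 the differences lay between -0.33 and 0.25.

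The 2 control groups, both labelled wild type, differed from each other in most of these genes. With the overexpression control set against the knockdown control, 8 of the 10 genes were higher and none was lower, against a background of 17.2% of genes for higher calls, 16.1% for lower calls and 33.4% for both directions. The median log2 difference was 1.14 over the 10 genes and 0.01 over all genes. For 9 genes, all but ALDH1A1, each overexpression control library was above each knockdown control library, an order shown by 27.3% of all genes, with the opposite order in 26.7% and either order in 54%. What set the controls apart (vector, hairpin, time in culture, batch) cannot be told apart from the arm, and because each control also enters its own arm's comparison, the values are given side by side and not as support for each other.

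AKR1C1 averaged 699.5 ± 295 CPM in the overexpression control and 174 ± 8.99 CPM in the knockdown control (SD, n = 3 each), 4.02-fold higher (log2 difference 2.01 ± 0.27 SE, edgeR adjusted p = 0.000605, and 1.61 without overexpression control replicate 1). AKR1C2 averaged 2582 ± 306 against 1034 ± 17.05 CPM, 2.50-fold higher (adjusted p = 0.000299). AKR1C3 averaged 1079 ± 99.1 against 414 ± 20.6 CPM, 2.61-fold higher (adjusted p = 0.000127). So the 3 clustered genes stood apart together between the controls, as did CBR3, at 4.94 ± 1.14 against 1.89 ± 0.502 CPM, 2.61-fold higher (adjusted p = 0.00732).

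ALDH3A1 averaged 3963 ± 652 CPM in the overexpression control and 1663 ± 192 CPM in the knockdown control (SD, n = 3 each), 2.38-fold higher (log2 difference 1.25 ± 0.17 SE, edgeR adjusted p = 0.000657). AKR1B1 was 2.04-fold higher (1.03 ± 0.23, adjusted p = 0.00746). Neither gene had passed in the knockdown arm. NQO1 was 1.49-fold higher (0.58 ± 0.15, adjusted p = 0.013), and without knockdown control replicate 2 its adjusted p was 0.0506. CBR1 was 1.31-fold higher (0.39 ± 0.12, adjusted p = 0.0295), a call that ended without any 1 of 5 libraries (each overexpression control, and knockdown control replicates 2 and 3) with adjusted p up to 0.116, and in 3 of 11 other settings. AKR1B10 (0.38 ± 0.24, adjusted p = 0.248) and ALDH1A1 (0.08 ± 0.14, adjusted p = 0.682) did not pass.

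Set in order of group mean, 9 of the 10 genes had their highest level in the overexpression control and CBR3 had its highest in the knockdown. The lowest mean was in the knockdown for AKR1B1, AKR1B10, NQO1, ALDH3A1 and ALDH1A1, and in the knockdown control for the 3 AKR1C genes, CBR1 and CBR3. For AKR1C2 the order of overexpression control, overexpression, knockdown and knockdown control had no overlap between any neighbours. For AKR1C3 the knockdown and the overexpression group, in the middle, overlapped. For AKR1B10 and CBR1 every pair of neighbours overlapped, so their order is not set beyond the spread. The span from the highest to the lowest group mean was 4.02-fold for AKR1C1, 3.66-fold for CBR3, 2.50-fold for both AKR1C2 and ALDH3A1, and between 1.31-fold and 1.64-fold for CBR1, ALDH1A1, AKR1B10 and NQO1.

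Other enzymes of the same kinds, a list of 39 genes that holds none of the 10, had 30 members tested. With overexpression none rose and 10 fell (33.3%, against 8.2% of all genes), a list median log2 fold change of -0.35: the aldo-keto reductases AKR1A1 and AKR1E2, the mitochondrial carbonyl reductase CBR4, the short-chain dehydrogenases DHRS1, DHRS7 and DHRS9, and the aldehyde dehydrogenases ALDH3B1, ALDH4A1, ALDH6A1 and ALDH16A1. None of these 10 calls held in every omission of 1 library. DHRS1 came nearest, at 5.76 ± 0.727 CPM with overexpression against 10.7 ± 0.742 CPM in the overexpression control (log2 fold change -0.89 ± 0.19, edgeR adjusted p = 0.0112, and 0.0535 without overexpression replicate 3, the library whose omission ended its call). Over the 12 omissions the number lower ran between 0 and 14.

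In the knockdown 3 of these 30 rose and 2 fell (16.7% called, against 23.9% of all genes), and over the 12 omissions of 1 library between 1 and 6 were higher and between 0 and 4 lower. ALDH3A2, the fatty aldehyde dehydrogenase of the endoplasmic reticulum, rose to 301, 279.7 and 322 CPM in the knockdown, against 191, 190.2 and 169.9 CPM in the knockdown control (log2 fold change 0.71 ± 0.12, edgeR adjusted p = 0.00238). All knockdown libraries were above the controls, and the call held in each omission of 1 library. It differed between the arms as well (log2 difference -1.07 ± 0.17, adjusted p = 0.00174). That difference takes in both controls, which were unlike for ALDH3A2. It averaged 305 ± 47.2 CPM in the overexpression control and 184 ± 12.1 CPM in the knockdown control (SD; log2 difference 0.73 ± 0.12 SE, edgeR adjusted p = 0.00154). The knockdown, at 301 ± 21.1 CPM, stood near the overexpression control. AKR1B15 was at 11.7, 39.9 and 7.63 CPM in the knockdown, against 6.75, 6.58 and 8.56 CPM in the knockdown control, so its call (adjusted p = 0.0491) rested on knockdown replicate 2 and ended without it and with 9 other omissions. DHRS1 rose (log2 fold change 0.66 ± 0.19, adjusted p = 0.0276), and CBR4 (-0.53 ± 0.16, adjusted p = 0.032) and ALDH1L2 (-1.02 ± 0.27, adjusted p = 0.0193) fell. These 3 calls ended without any 1 of 4 libraries for DHRS1 (knockdown replicate 1 and each knockdown control), without any 1 library of the arm for CBR4, and without knockdown control replicate 3 for ALDH1L2.

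Between the controls, 13 of the 30 were higher in the overexpression control and 1 was lower (43.3% and 3.33%, against 17.2% and 16.1% of all genes). Calls of 8 of these 14 held in every omission of 1 library, among them ALDH2, the mitochondrial enzyme that clears acetaldehyde, at 205 ± 20.3 CPM in the overexpression control and 102 ± 5.44 CPM in the knockdown control (SD, n = 3 each; log2 difference 1.01 ± 0.17 SE, edgeR adjusted p = 0.00179), and DHRS9, a retinol dehydrogenase, at 17.5 ± 3.17 against 1.94 ± 0.475 CPM (3.16 ± 0.40, adjusted p = 0.000464). ALDH1L2, the mitochondrial formyltetrahydrofolate dehydrogenase, was the 1 lower gene (-1.21 ± 0.27, adjusted p = 0.00696).

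Of 37 tested NRF2 targets that are not among the 10, from a list that shares PTGR1, UGDH and TXNRD1 with the enzyme list and includes glutathione, thioredoxin, iron and pentose phosphate genes, 2 rose and 6 fell with overexpression (5.41% and 16.2%, against 9.87% and 8.2% of all genes; list median log2 fold change -0.10). Without overexpression control replicate 1 the count was 6 higher and 3 lower and the median 0.03, and over the 12 omissions of 1 library between 1 and 6 were higher and between 0 and 8 lower. OSGIN1, an oxidative stress response gene, rose to 137, 122 and 119 CPM with overexpression, against 33.1, 12.5 and 10.2 CPM in the overexpression control (log2 fold change 2.76 ± 0.43, edgeR adjusted p = 0.003). This was the 1 call of the 8 that held in each omission of 1 library. HMOX1, which breaks down haem, was the other gene that rose (1.14 ± 0.36, adjusted p = 0.0497, ended by 9 of the 12 omissions). Those that fell included the pentose phosphate enzymes TKT and TALDO1, the glutathione peroxidase GPX2, the epoxide hydrolase EPHX1 and the biliverdin reductase BLVRB, and each of these named calls ended without any 1 of between 4 and 9 libraries.

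In the knockdown 2 of these 37 rose (PRDX1 and GSTM3) and 2 fell (CYP4F11 and NR0B1 itself, which is on the list), 10.8% called against 23.9% of all genes. The count was 5 higher and 2 lower without knockdown replicate 2, and 1 higher and 6 lower without knockdown replicate 3. The call of NR0B1 was the 1 that held in every omission. Between the controls 11 were higher in the overexpression control and 3 were lower (TRIM16, TRIM16L and CES1), 37.8% called against 33.4% of all genes. The higher ones were GCLM, PRDX1, PGD, GPX2, ABCC1, ABCC3, EPHX1, CYP4F11, PTGR1, MGST1 and NR0B1 itself. Of these 14 calls 8 held in every omission of 1 library, and that of NR0B1 was not among them. TXNRD1, thioredoxin reductase, did not pass there. It averaged 737 ± 156 CPM in the overexpression control and 1129.8 ± 46.3 CPM in the knockdown control (log2 difference -0.62 ± 0.24, edgeR adjusted p = 0.0674).

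The transcript of NRF2 itself lay on the other side of 0 from the called enzymes. NFE2L2 was at 312, 274 and 280.0 CPM with overexpression, against 243, 167 and 189 CPM in the overexpression control (log2 fold change 0.53 ± 0.18, edgeR adjusted p = 0.0606), while the fitted changes of the enzymes were below 0. In the knockdown NFE2L2 fell to 117, 188 and 131 CPM, against 356, 329 and 326 CPM in the knockdown control (-1.21 ± 0.18, adjusted p = 0.00123), where AKR1C1, AKR1C3 and CBR3 rose, while 5 of the 10 enzymes, none of which passed, had fitted changes below 0 like NFE2L2. Between the controls NFE2L2 averaged 199.7 ± 39.1 CPM in the overexpression control and 337 ± 16.4 CPM in the knockdown control (-0.76 ± 0.18, adjusted p = 0.00914), where 8 of the enzymes were higher. NFE2L2 did not pass in the first of these comparisons, and the last shares a control group with each of the others. Transcript levels do not measure NRF2 protein or its activity.

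Of its partners, MAFK passed in both arms. MAFK, a small MAF protein that pairs with NRF2 and also forms repressive dimers, was at 226, 287 and 262 CPM with overexpression, against 90.1, 67.1 and 63.9 CPM in the overexpression control (log2 fold change 1.81 ± 0.17, edgeR adjusted p = 0.000373). It fell to 88.1, 96.6 and 68.4 CPM in the knockdown, against 176, 166 and 203 CPM in the knockdown control (-1.11 ± 0.17, adjusted p = 0.00136). In both arms the groups did not overlap and the calls held in every omission of 1 library. KEAP1 rose with overexpression, to 83.1 ± 7.18 CPM against 50.8 ± 9.07 CPM in the overexpression control (SD, n = 3 each; 0.71 ± 0.17 SE, adjusted p = 0.0186), a call that ended without overexpression replicate 2 or overexpression control replicate 2 or 3. MAFF fell in the knockdown (-1.79 ± 0.49, adjusted p = 0.0233), a call that ended without knockdown replicate 3 or knockdown control replicate 3. Of the 10 regulators tested, 2 rose with overexpression (20%, against 9.87% of all genes). In the knockdown 4 fell (40%, against 11.5% of all genes): NFE2L2, MAFF, MAFK and NR0B1, the last being the target of the hairpin. Between the controls 2 were higher in the overexpression control (NR0B1 and RXRA) and 3 lower (NFE2L2, NFE2L1 and MAFK). These were 20% and 30%, against 17.2% and 16.1% of all genes.

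**Figure D4:**
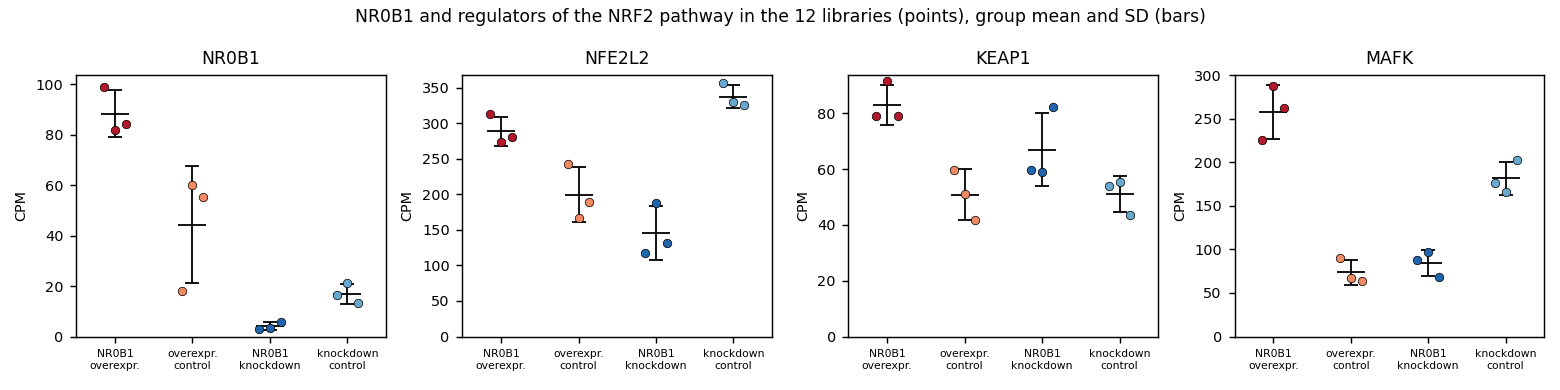
Levels of NR0B1, NFE2L2, KEAP1 and MAFK in CPM (vertical axes, from 0) in the 12 libraries by group (horizontal axis); points are libraries, and bars give the group mean and SD of 3. MAFK lies between 226 and 287 CPM with overexpression and between 63.9 and 90.1 CPM in its control, and NFE2L2 lies between 117 and 188 CPM in the knockdown and between 326 and 356 CPM in its control.

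As a description of likeness, the genes outside the 10 whose log2(CPM + 1) followed each enzyme most closely over the 12 libraries were sought among 6085 genes averaging 10 FPKM or more. Pearson's r takes in differences between the 4 groups as well as within them, and libraries share depth and arm, so no test is given. The closest were PERP (0.978) and AKT1 (0.968) for AKR1C3, CP (0.962) and TM4SF4 (0.957) for AKR1C1, and SULT1A4 (0.957) and SERINC5 (0.956) for AKR1C2. They were NDUFV2 (0.962) and TPP1 (0.952) for ALDH3A1, CTSD (0.948) and HDGF (0.941) for AKR1B1, CDK2AP1 (0.940) and JMJD8 (0.914) for AKR1B10, and CYB5B (0.936) and ATP6V1E1 (0.934) for NQO1. For CBR3 they were CANT1 (0.928) and EHMT2 (0.924), for ALDH1A1 NABP2 (0.918) and ANXA5 (0.882), and for CBR1 RAB8A (0.917) and TCTN3 (0.884). SULT1A4 has a near-identical copy, SULT1A3, so its own level is uncertain.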

How the data were processed

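RNA from 12 libraries of A549 cells (3 µg input each) was measured. The authors deposited 1 table with an expected count and an FPKM value per transcript and library, per the file headers; FPKM is the authors' scaling to transcript length and library size. The tools listed, per the submitters' processing notes, are RSEM, StringTie 1.3.1, Bowtie2 2.2.8, HISAT2 2.0.5 and fastp, in no stated role. The builds listed there are mouse ones although the identifiers belong to human transcripts, so none was adopted, and 82237 of 82270 Ensembl rows were found in GENCODE 29 (GRCh38), with the same symbol in 99.78%. No source used here gives the filters, strand or annotation release. Expected counts and FPKM were summed over Ensembl rows by symbol and counts rounded; 184 symbols turned into dates were restored. The other 13977 rows, assembled transcripts holding between 13.3% and 15.4% of counts, were left out; those that carry the symbols of the 10 genes are given in the closing section.

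Genes were tested with edgeR 4.0.16 (quasi-likelihood, robust, TMM) in R 4.3.3, with CPM taken over TMM-scaled library sizes, over all 12 libraries in 1 fit, with 8 residual degrees of freedom, Benjamini-Hochberg adjustment over 11908 genes and a threshold of 0.05; SE is the log2 fold change over the square root of F. Alternatives were DESeq2 1.42.0, limma 3.58.1 on log2(FPKM + 1) and log2(FPKM + 0.1), other scalings, no filter, a replicate block and omitted libraries. The AKR1C sum was fitted with the 3 genes replaced by their sum. The edgeR test was checked on simulated data for the comparisons of 2 groups. It recovered between 1.64% and 5.88% of 1.5-fold changes, 43.2% to 44.9% of 2-fold and 81.8% to 86.9% of 4-fold changes. Fewer genes were changed there than were called in these data, so the shares do not carry over directly. A change of 2-fold or less that did not pass is therefore not shown to be absent, and some 4-fold changes were missed too. A count of 3 equals between 0.153 and 0.234 CPM, a floor that covers counting error only, as PCR duplicates are no separate molecules. Sequence identities came from global alignments (Biopython 1.88). The members, lists, settings and the rule for named genes (the 10 members, list genes that were called, and the 2 genes of highest r) were chosen with earlier results of these data known; DHRS1, ALDH3A2, OSGIN1, TXNRD1 and other list genes given in full were picked after their values were seen. Some genes of the lists are not reported here by name.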

Additional observations from a re-analysis of the deposited data

Results flagged for a closer look

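The arms differed for AKR1C1 (overexpression change minus knockdown change, log2 -1.53), AKR1C2 (-0.766), AKR1C3 (-1.57), CBR3 (-2.14) and the AKR1C sum (-1.08), each past the edgeR test of the difference. These are the values given above, picked out because the same gene changed differently in the 2 arms.

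Assembled transcripts that carry the symbols of these genes are outside the sums above. Summed over the 12 libraries, they held 89.1% as many counts as the Ensembl rows for AKR1C3, 29.1% for NQO1, 1.85% for AKR1C2, 0.438% for AKR1C1, 0.165% for ALDH1A1 and 0.105% for ALDH3A1. The AKR1C3 row was at 711, 518 and 572 CPM with overexpression, against 947, 805 and 927 CPM in the overexpression control, and at 642, 629.7 and 677 CPM in the knockdown, against 324, 392 and 367 CPM in the knockdown control, so its groups stood in the same order as the annotated rows and did not overlap within either arm. With these rows added, AKR1C3 had a log2 fold change of -0.71 (edgeR adjusted p = 0.00361) with overexpression and 0.80 (adjusted p = 0.001) in the knockdown. The NQO1 row was at 456, 369.9 and 363 CPM with overexpression, against 623, 327 and 436 CPM in the overexpression control, and at 233, 168 and 266 CPM in the knockdown, against 231, 284 and 244 CPM in the knockdown control, overlapping in both arms.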

How the results depend on the processing

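Besides the omission of single libraries, up to 11 other settings were tried for each value. Over all settings, 843 of the member values kept their direction and side of the threshold, 24 passed newly, 24 no longer passed and 19 reversed. AKR1C3 and CBR3 kept every call they had in the 4 comparisons. The AKR1C sum in the knockdown no longer passed with limma on log2(FPKM + 1) (0.4184, adjusted p = 0.0559) and log2(FPKM + 0.1) (0.4188, adjusted p = 0.0549), with no filter (0.4495, adjusted p = 0.0752), with only the 2 groups fitted (0.4745, adjusted p = 0.0609) and with the replicate block (0.4804, adjusted p = 0.0523). Without 1 library it ran between 0.421 and 0.547 in the knockdown, between -0.743 and -0.473 with overexpression, between -1.21 and -0.947 for the arms and between 1.297 and 1.52 for the controls. The number of members called in the knockdown was 5 with DESeq2 (30% of all genes) and 6 without overexpression control replicate 1 and knockdown replicate 2 (37.7% of all genes). Without 1 library the members called numbered 2 to 3 with overexpression, 2 to 4 in the knockdown, 3 to 5 for the arms and 6 to 8 for the controls. In that order, the shares of all genes called ran between 6.89% and 27.7%, 12.6% and 28.8%, 17.9% and 31.8%, and 21.5% and 41.3%.

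The reversed values had not passed with edgeR. The AKR1B10 difference of the arms (-0.04) was 0.01088 with library size only, 0.07155 and 0.07168 with limma and 0.01099 with the replicate block. Without overexpression control replicate 1 and knockdown replicate 2 together, AKR1B10 was at 0.128 in the knockdown and 0.05545 with overexpression, and ALDH1A1 at -0.03649 between the controls and 0.02197 with overexpression. Without 1 library, AKR1B10 ran between -0.261 and 0.177 for the arms, -0.327 and 0.126 in the knockdown and -0.301 and 0.0554 with overexpression. ALDH1A1 ran between -0.0365 and 0.179 for the controls and -0.193 and 0.022 with overexpression, ALDH3A1 between -0.19 and 0.0562 in the knockdown, and NQO1 between -0.287 and 0.00716 for the arms. The causes were not tested.

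The labels do not say that replicate numbers pair the samples. Correlations of same-numbered deviations lay between 0.00076 and 0.25 in the overexpression arm and -0.08 and 0.033 in the knockdown arm. Groups of 3, with a library standing apart in each arm, cannot settle by these correlations whether samples were paired. With the replicate block the members called numbered 3, 3, 5 and 8 for overexpression, knockdown, the arms and the controls. The shares of all genes called were then 15.7%, 20.5%, 23.3% and 30.9%. Over all settings, genes called ran between 6.89% and 37.5% with overexpression and 12.6% and 37.7% in the knockdown, and of the calls 41.1% were higher in the knockdown with limma on log2(FPKM + 1), against 51.9% with edgeR, and 40.2% against 51.6% for the controls. Precision rested on 3 libraries a group and a biological coefficient of variation of 24.5%, and the smallest fold called among the members was 1.31.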
